A study of Mus musculus with 4 samples.

Results

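Mt1, Mt2, Mt3, Apoe, Clu, Apod and Cst3 were followed in 4 brain sections of Nf1+/- mice profiled by Visium spatial transcriptomics, in which barcoded spots on a slide capture polyadenylated RNA from the tissue lying over them. These 7 genes, of 32285 genes in the count files, were chosen by name as metallothioneins and abundant glial secreted proteins, and every section contained all 7. With these sections the study asked whether dense clusters of oligodendrocyte precursor cells (OPCs) in Nf1+/- brain had lost Nf1 expression. All 4 sections carried the same genotype label, Nf1+/-, heterozygous for Nf1 in the germline, with no wild-type section and no treatment. Neither the number of mice behind the sections nor their ages are given in the labels. Each n below therefore counts sections. The p-values rest on how far class differences vary between these sections, estimated over all classes of a fit, with the spread of each gene partly drawn from all genes. Section numbers only name the sections.

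Metallothioneins are small cysteine-rich proteins that bind zinc and copper and buffer free metal. Mt1 and Mt2 are made by astrocytes and by cells lining the ventricles and meninges. They are induced by glucocorticoids and by zinc, with only the zinc response running through the transcription factor MTF-1. Mt3 is the brain form and is present in neurons as well as astrocytes. Apolipoprotein E, the main lipid carrier of brain lipoproteins, is secreted mostly by astrocytes and microglia. Clusterin, also called apolipoprotein J, is a secreted chaperone that travels on the same particles. Apolipoprotein D, the product of Apod, is a lipocalin that binds arachidonic acid and is known from oligodendrocytes and from fibroblasts of the meninges. Cystatin C, the product of Cst3, inhibits cysteine proteases of the cathepsin family and is highly expressed by microglia and astrocytes.

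The 3 metallothionein genes lie together on chromosome 8 of the mm10 build (RefSeq, GRCm38.p6), with Mt3 at chr8:94152607-94154148, Mt2 at chr8:94172618-94173567 and Mt1 at chr8:94178883-94180327. The gap between Mt2 and Mt1 is 5316 bases and that between Mt3 and Mt2 is 18470 bases. Apoe is at chr7:19696244-19701310, Clu at chr14:65968483-65981548, Apod at chr16:31296192-31314808 and Cst3 at chr2:148871722-148875512. Because MTF-1 is known to act on Mt1 and Mt2, the 250 bases before each start in the RefSeq promoter records were searched on both strands. The motif sought was the core of the metal response element bound by MTF-1, TGCACNC or TGCGCNC (these motifs do not overlap in a match). Of the 7 genes, 6 had such a window, and matches were found for Mt2 and Mt1. They are printed 5′ to 3′ on the plus strand with 10 bases on each side and the 7-base match in capitals.
Mt2, chr8:94172385-94172411, starting 223 bases before the gene start: gcatcgcctcTGCACCCggcccctcgg
Mt2, chr8:94172480-94172506, starting 128 bases before the gene start: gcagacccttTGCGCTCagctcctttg
Mt2, chr8:94172558-94172584, starting 50 bases before the gene start, match on the minus strand: gggggagggcGTGTGCAggctctgtcc
Mt1, chr8:94179056-94179082, starting 23 bases before the start used: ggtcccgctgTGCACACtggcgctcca
The windows of Mt3, Apoe, Apod and Cst3 held no match. Those of Apoe, on the minus strand from chr7:19698399-19698648 to chr7:19699189-19699438, lie inside the Apoe gene record. The bases upstream of the start of that record were not searched. Among 32851 promoter windows of that length, 21.4% held at least 1 match and 1.26% held at least 3. The Mt1 window, chr8:94178839-94179088, reaches past the first base of the Mt1 gene record, and the Mt1 match lies inside that record, so other starts of Mt1 exist and were not searched. A match is a run of letters and was not tested as a binding site.

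The deposited counts came from 7668 spots, of which 7620 had at least 500 unique molecular identifiers (UMIs, each counting 1 captured RNA molecule) and were used. Totals were 19261710 to 37002379 UMIs per section, with a median of 8862.5 to 15296.5 UMIs per used spot. Levels are given as UMIs of the gene per 1000000 UMIs (CPM). A spot covers a small patch of tissue and can hold several cells of different types, so fewer cells of a type and less RNA per cell cannot be told apart. Spots were placed in classes by marker genes that include none of the 7 genes. Choroid plexus spots had at least 3 of 10 epithelial markers such as Folr1 and Kcnj13, white matter spots had a summed share of 8 myelin genes such as Mbp and Mobp at least 2.5 times the section median, and meningeal spots had at least 3 of 10 fibroblast markers such as Col1a1 and Dcn at 3 times their mean share. Neuron-rich spots were the 30% of a section with the largest share of 10 neuronal genes such as Snap25. A class entered a section with at least 20 spots, and 210 spots that met several rules were left out of all classes.

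White matter spots numbered 222, 318, 420 and 234 in sections 1 to 4, and neuron-rich spots 426, 668, 667 and 417. Meningeal spots numbered 30, 89 and 41 in sections 1 to 3, and the 19 in section 4 were too few to enter. Choroid plexus spots numbered 112 in section 1 and 42 in section 4, whereas sections 2 and 3 had 4 and 6 and did not enter. Tests of choroid plexus spots therefore rest on 2 sections, with a spread estimated over all classes. Choroid plexus and meningeal spots entered together only in section 1, so their comparison also draws on differences between sections. In the classes that entered, genes held back to check the classes followed the labels. Ttr, Enpp2 and Ecrg4 of the choroid plexus summed to 52529 and 59819 CPM there against 140 to 4103 CPM in neuron-rich spots. The source of their counts in neuron-rich spots was not tested. In the 4 spots of section 2 that met the choroid plexus rule they summed to 146 CPM, with Ecrg4 at 0. In neuron-rich spots of that section they summed to 148 CPM. Ermn, Aspa, Ugt8a and Opalin of oligodendrocytes summed to 461 to 755 CPM in white matter spots against 65.4 to 96.1 CPM in neuron-rich spots, and Igf2, Igfbp2, Mgp and Foxc1 to 898 to 1694 CPM in meningeal spots against 80.1 to 110 CPM. White matter spots were shallower than neuron-rich spots in every section, with medians of 4555.5 to 8331.5 against 12090 to 19022 UMIs. A higher CPM there is a larger share of the captured RNA and need not mean more molecules per spot. In section 1, 222 white matter spots held 7325 UMIs of Mt1 and 1003 of Apod. The 426 neuron-rich spots of that section held 16930 and 779.

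Over whole sections, section 4 had the lowest level of every gene. Mt1 was at 2655, 2219, 2455 and 2077 CPM in sections 1 to 4, a mean of 2352 ± 256 CPM (SD, n = 4). Mt2 was at 426, 332, 306 and 273 CPM and Mt3 at 2435, 2313, 2572 and 2282 CPM. Section 1 was highest for both Mt1 and Mt2, and section 3 for Mt3. Apoe was at 1957, 1836, 1686 and 1491 CPM, Clu at 953, 979, 859 and 789 CPM, Apod at 184, 193, 177 and 147 CPM, and Cst3 at 3822, 3954, 3810 and 3121 CPM. The low values of section 4 were also present within its neuron-rich spots, for all 7 genes. In white matter spots, section 4 was lowest only for Cst3. Exact Poisson 95% intervals, which cover counting error only, separated section 4 from the next lowest section over all spots for every gene except Mt3 (2260 to 2303 CPM against 2297 to 2328 CPM in section 2). These sections form a single group, so the differences between them were not tested.

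**Figure D1:**
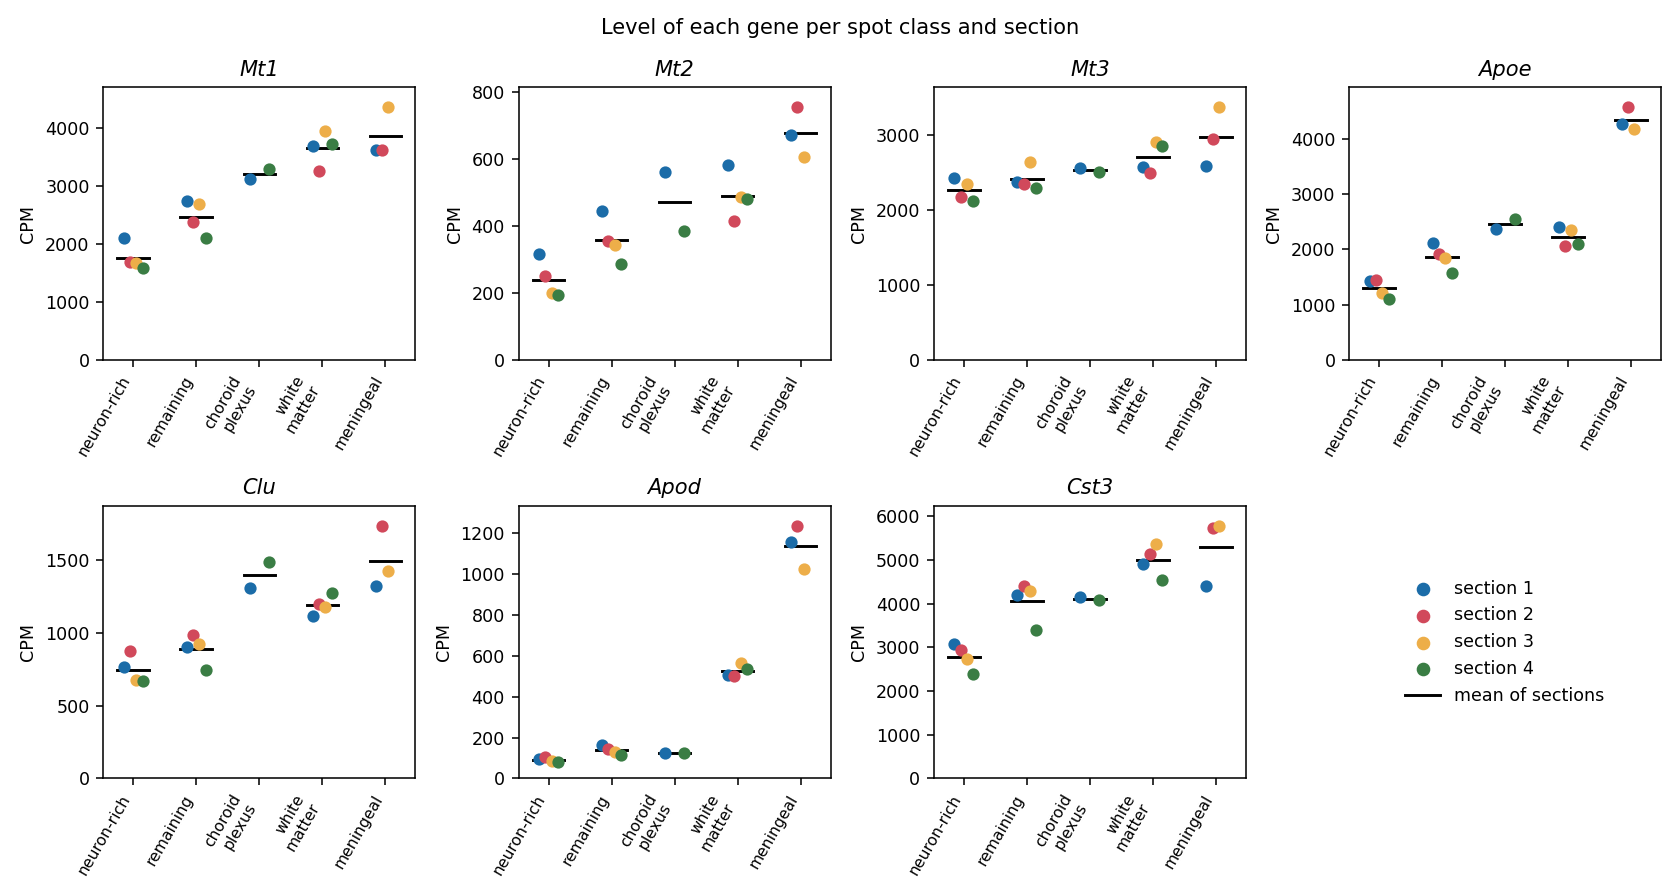
Level of each gene in CPM (linear axis from 0) in 5 classes of spots, with 1 point per section in its color and a black line at the mean of the sections shown. Neuron-rich spots hold the lowest mean of all 7 genes, Mt3 differs least between classes, and Apod stands at 1026 to 1236 CPM in meningeal spots against 79.3 to 107 CPM in neuron-rich spots.

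Mt1 and Mt2 were higher in choroid plexus, white matter and meningeal spots than in neuron-rich spots, and Mt3 differed least between classes. In neuron-rich spots Mt1 was at 2111, 1692, 1672 and 1589 CPM in sections 1 to 4, in white matter at 3684, 3253, 3960 and 3727 CPM, in meningeal spots of sections 1 to 3 at 3619, 3631 and 4358 CPM, and in choroid plexus spots of sections 1 and 4 at 3115 and 3299 CPM. Neuron-rich values overlapped none of those in white matter, meningeal or choroid plexus spots. Mt1 was 2.18-fold higher in white matter than in neuron-rich spots (log2 fold change 1.12 ± 0.08, SE, edgeR adjusted p = 9.02e-11), 2.26-fold higher in meningeal spots (1.18 ± 0.09, edgeR adjusted p = 6.02e-10) and 1.86-fold higher in choroid plexus spots (0.89 ± 0.10, edgeR adjusted p = 8.13e-07). Among those 3 classes no difference in Mt1 passed the test. The 95% intervals of these log2 differences were -0.45 to -0.02 for choroid plexus against white matter, -0.52 to -0.05 for choroid plexus against meningeal spots and -0.24 to 0.13 for white matter against meningeal spots.

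Mt2 was at 316, 250, 199 and 194 CPM in neuron-rich spots and at 582, 415, 486 and 480 CPM in white matter. It was at 671, 754 and 608 CPM in meningeal spots and at 561 and 384 CPM in choroid plexus spots. Section 1 was the highest of its class in neuron-rich, white matter and choroid plexus spots. The white matter, meningeal and choroid plexus values did not overlap the neuron-rich values. The rise over neuron-rich spots was 2.18-fold in white matter (1.12 ± 0.09, edgeR adjusted p = 1.18e-09), 2.95-fold in meningeal spots (1.56 ± 0.11, edgeR adjusted p = 2.36e-10) and 1.96-fold in choroid plexus spots (0.97 ± 0.13, edgeR adjusted p = 6.02e-06). Mt2 was also lower in white matter than in meningeal spots by a log2 difference of -0.43 ± 0.11 (edgeR adjusted p = 0.0108) and lower in choroid plexus than in meningeal spots by -0.59 ± 0.15 (edgeR adjusted p = 0.0154). Both of these calls were lost without section 2, which holds the highest meningeal value and the largest number of meningeal spots (-0.18, edgeR adjusted p = 0.498, and -0.41, edgeR adjusted p = 0.124), and the second without section 4 as well (-0.55, edgeR adjusted p = 0.0692). Over all alternatives the first was called in 12 of 18 and the second in 9 of 17, with the first at -0.09 (edgeR adjusted p = 0.780) where white matter spots were chosen more strictly, at 4 times the section median.

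Mt3 was at 2425, 2169, 2342 and 2124 CPM in neuron-rich spots and at 2580, 2488, 2914 and 2851 CPM in white matter. In meningeal spots it was at 2593, 2949 and 3369 CPM, and in choroid plexus spots at 2556 and 2506 CPM. Each section's white matter was above its own neuron-rich spots, by a smaller margin than for the other metallothioneins. The fold was 1.26 in white matter (0.33 ± 0.07, edgeR adjusted p = 0.000261) and 1.37 in meningeal spots (0.45 ± 0.07, edgeR adjusted p = 5.29e-05). In choroid plexus spots it was 1.17 and missed the threshold (0.22 ± 0.08, edgeR adjusted p = 0.0633, 95% interval 0.05 to 0.40). It passed in 5 of 19 alternatives, with a log2 fold change of up to 0.46 (edgeR adjusted p = 0.00702) where choroid plexus spots needed at least 5 markers. No difference in Mt3 among choroid plexus, white matter and meningeal spots passed the test. Across single spots Mt3 also varied less than Mt1, although their section totals were alike (57161 and 62329 UMIs in section 1). The 90th percentile of spot CPM was 2.25 times the 10th percentile for Mt3 and 3.37 times for Mt1 (means of 4 sections), and the variance of counts relative to counting error alone, which gives 1, was 3.02 for Mt3 and 8.54 for Mt1.

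Apoe was highest in meningeal spots. It was at 1427, 1445, 1213 and 1107 CPM in neuron-rich spots, at 2397, 2064, 2349 and 2093 CPM in white matter, at 2368 and 2547 CPM in choroid plexus spots and at 4278, 4569 and 4172 CPM in meningeal spots. The meningeal values lay above every value of the other classes, and white matter and choroid plexus values overlapped each other. Against neuron-rich spots Apoe was 3.42-fold higher in meningeal spots (1.77 ± 0.08, edgeR adjusted p = 2.83e-13), 1.97-fold higher in choroid plexus spots (0.98 ± 0.10, edgeR adjusted p = 1.57e-07) and 1.81-fold higher in white matter (0.86 ± 0.08, edgeR adjusted p = 4.34e-09). White matter was below meningeal spots by a log2 difference of -0.92 ± 0.09 (edgeR adjusted p = 3.25e-08) and choroid plexus by -0.80 ± 0.11 (edgeR adjusted p = 5.43e-05). The second call was lost, with a smaller difference, where choroid plexus spots needed at least 5 markers (-0.41, edgeR adjusted p = 0.0674) and where spots that met several class rules were kept (-0.38, edgeR adjusted p = 0.222). Choroid plexus and white matter differed by 0.12 ± 0.10 (interval -0.09 to 0.33, edgeR adjusted p = 0.579).

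Clu was at 764, 872, 673 and 667 CPM in neuron-rich spots and at 1116, 1198, 1179 and 1271 CPM in white matter. It was at 1310 and 1486 CPM in choroid plexus spots and at 1318, 1731 and 1422 CPM in meningeal spots. The rise over neuron-rich spots was 2.00-fold in choroid plexus spots (1.00 ± 0.10, edgeR adjusted p = 2.30e-07), 2.08-fold in meningeal spots (1.06 ± 0.09, edgeR adjusted p = 5.93e-09) and 1.69-fold in white matter (0.76 ± 0.08, edgeR adjusted p = 5.34e-08). White matter was below meningeal spots by -0.30 ± 0.09 (edgeR adjusted p = 0.0357), a call lost without section 2 (-0.17, edgeR adjusted p = 0.497) and without section 3 (-0.32, edgeR adjusted p = 0.125). It was called in 9 of 18 alternatives, and stood at -0.08 (edgeR adjusted p = 0.747) with white matter spots at 4 times the section median. Clu and Apod depended on how strictly choroid plexus spots were chosen. With at least 5 markers required, only section 1 kept enough spots, 40 of them, and Clu there was at 2021 CPM and Apoe at 3254 CPM, while Apod was at 86.4 CPM. Under that rule Clu was higher in choroid plexus than in white matter (log2 fold change 0.80, edgeR adjusted p = 0.000137) and than in meningeal spots (0.55, edgeR adjusted p = 0.0232), with that class resting on 1 section whose spread is assumed to be like that of the other classes. With at least 3 markers neither difference passed the test (0.24 ± 0.10, edgeR adjusted p = 0.191, and -0.06 ± 0.12, edgeR adjusted p = 0.855). Over 18 alternatives the Clu difference from white matter ran from 0.03 to 0.80 and was called in 5. With at least 3 markers it was called with stricter meningeal spots (0.46, edgeR adjusted p = 0.00195) and with spots of several classes kept (0.52, edgeR adjusted p = 0.0245). The same held for totals without Ttr (0.35, edgeR adjusted p = 0.0295) and for spots with at least 5000 UMIs (0.34, edgeR adjusted p = 0.0316).

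Apod had the widest range over classes. It was at 97.1, 107, 86.5 and 79.3 CPM in neuron-rich spots, at 125 and 124 CPM in choroid plexus spots, at 504, 504, 566 and 537 CPM in white matter and at 1158, 1236 and 1026 CPM in meningeal spots. White matter and meningeal values overlapped neither each other nor the rest. White matter spots held 24.9% ± 7.0 of Apod UMIs but 8.10% ± 1.67 of all UMIs (SD, n = 4), and meningeal spots held 12.6% ± 6.5 of Apod UMIs but 2.03% ± 0.97 of all UMIs (SD, n = 3). Apod was 12.6-fold higher in meningeal than in neuron-rich spots (3.66 ± 0.10, edgeR adjusted p = 3.69e-17) and 6.03-fold higher in white matter (2.59 ± 0.09, edgeR adjusted p = 1.82e-16). White matter was below meningeal spots by -1.07 ± 0.10 (edgeR adjusted p = 3.25e-08). Choroid plexus spots were 4.45-fold below white matter (-2.15 ± 0.15, edgeR adjusted p = 3.30e-10) and 9.31-fold below meningeal spots (-3.22 ± 0.16, edgeR adjusted p = 7.31e-12). The small excess of choroid plexus over neuron-rich spots (0.44 ± 0.15, edgeR adjusted p = 0.0382) was called in 9 of 19 alternatives. It was lost without section 1, 3 or 4 (edgeR adjusted p from 0.0590 to 0.222) and stood at -0.10 (edgeR adjusted p = 0.847) where choroid plexus spots needed at least 5 markers.

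Cst3 was at 3074, 2945, 2724 and 2391 CPM in neuron-rich spots and at 4912, 5130, 5375 and 4544 CPM in white matter. It was at 4407, 5737 and 5776 CPM in meningeal spots and at 4151 and 4079 CPM in choroid plexus spots. All values outside the neuron-rich class lay above those inside it, and white matter and meningeal values overlapped. Cst3 was 1.89-fold higher than in neuron-rich spots in white matter (0.92 ± 0.07, edgeR adjusted p = 4.72e-10), 1.92-fold in meningeal spots (0.94 ± 0.08, edgeR adjusted p = 4.16e-09) and 1.61-fold in choroid plexus spots (0.69 ± 0.09, edgeR adjusted p = 5.87e-06). The choroid plexus call held in 17 of 19 alternatives. It was lost with only the 2 classes compared in the fit (0.63, edgeR adjusted p = 0.0542). Both choroid plexus values lay below every white matter value, a difference that did not pass the test but was called in 4 of 18 alternatives (log2 difference -0.25 to -0.40, edgeR adjusted p from 0.0134 to 0.0240). Nor did the other pairs of these 3 classes pass for Cst3, and the interval of white matter against meningeal spots was -0.19 to 0.14.

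**Figure D2:**
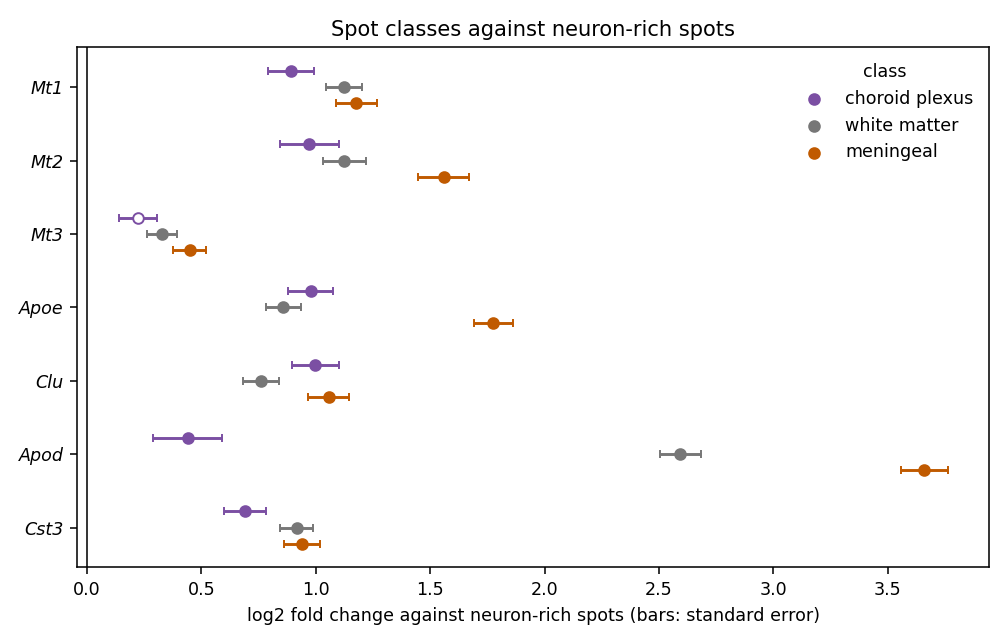
Log2 fold change of each gene (vertical axis) in choroid plexus, white matter and meningeal spots against neuron-rich spots, with bars of 1 standard error from the edgeR fit; filled points passed an adjusted p of 0.05. Of the 21 points only Mt3 in choroid plexus spots is open, and Apod reaches 2.59 in white matter and 3.66 in meningeal spots while it stands at 0.44 in choroid plexus spots.

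The 19 meningeal spots of section 4, which did not enter the fit, were lower than the meningeal spots of each other section for all 7 genes. They held Mt1 at 2246, Mt2 at 400, Mt3 at 2154, Apoe at 2880, Clu at 1014, Apod at 580 and Cst3 at 3894 CPM. With classes of at least 5 spots admitted, chosen after seeing the data, these spots entered. So did the 6 spots of section 3 that met the choroid plexus rule, which held Mt2 at 756 CPM. All 7 genes were still called higher in meningeal than in neuron-rich spots, from a log2 fold change of 0.36 for Mt3 to 3.54 for Apod. With classes of at least 20 spots, 15.2% of all genes were called higher in that comparison and 13.6% lower. With at least 5 spots, the calls of Mt2 (edgeR adjusted p = 0.0611) and Clu (edgeR adjusted p = 0.296) in white matter against meningeal spots were lost. So was that of Mt2 in choroid plexus against meningeal spots (edgeR adjusted p = 0.118). Within section 4, white matter was above these meningeal spots for Mt2 (480 against 400 CPM) and Clu (1271 against 1014 CPM). The same held for Mt1, Mt3 and Cst3, while white matter was lower for Apoe (2093 against 2880 CPM) and Apod (537 against 580 CPM).

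The counts of called genes among the 7 have to be read against many differences across all genes. Of the 13061 genes tested between white matter and neuron-rich spots, 22.1% were called higher and 20.2% lower, while all 7 genes were higher, with a median log2 fold change of 0.92 against 0.03 over all genes. Meningeal spots had 15.2% of genes called higher and 13.6% lower than neuron-rich spots, with all 7 genes higher (median 1.18 against -0.03). Choroid plexus spots had 11.4% higher and 10.2% lower, with 6 of the 7 genes higher and Mt3 not called (median 0.89 against 0.02). Between choroid plexus and white matter 3.59% of genes were called higher and 5.31% lower in the plexus, and of the 7 only Apod was called, lower. Between choroid plexus and meningeal spots the shares were 2.78% and 4.61%, and Mt2, Apoe and Apod were lower. Between white matter and meningeal spots they were 5.93% and 6.91%, and Mt2, Apoe, Clu and Apod were lower. The balance of calls moved with the scaling. With total UMIs in place of TMM factors, the share of called genes that were higher went from 52.3% to 42.7% for white matter and from 52.8% to 43.2% for meningeal spots against neuron-rich spots, and from 40.4% to 49.1% and from 37.6% to 47.3% for choroid plexus against white matter and meningeal spots. Leaving Ttr out of these totals as well took the last pair to 61.3% and 60.8%, and the median of all genes, which was 0.01 and 0.02 with TMM and 0.05 and 0.07 with total UMIs, to 0.12 and 0.14.

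Since neuron-rich spots were chosen by their share of neuronal RNA, a second reference was tried. With the spots outside all 4 classes as the reference, chosen after seeing the data, Apod (1.96, edgeR adjusted p = 2.44e-14), Mt1 (0.58, edgeR adjusted p = 6.93e-06), Mt2 (0.48), Clu (0.44), Cst3 (0.31) and Apoe (0.28, edgeR adjusted p = 0.0105) were still called higher in white matter, and Mt3 was not (0.18, edgeR adjusted p = 0.0561). All 7 genes were called higher in meningeal spots, from 0.30 for Mt3 to 3.02 for Apod. In this setting 2655 of 13061 genes were called in either direction for white matter. For meningeal and choroid plexus spots these were 2467 and 697 of 13059 genes. In choroid plexus spots Clu (0.68, edgeR adjusted p = 0.000129), Apoe (0.40, edgeR adjusted p = 0.0171) and Mt1 (0.35, edgeR adjusted p = 0.0474) were called higher, whereas Mt2 (0.33, edgeR adjusted p = 0.169), Cst3 (0.09, edgeR adjusted p = 0.732) and Apod (-0.20, edgeR adjusted p = 0.577) were not.

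Other cell types moved with these classes. The 10 astrocyte markers summed to 2145 to 2543 CPM in neuron-rich spots, 2548 to 3134 CPM in white matter, 3191 to 4464 CPM in meningeal spots and 1931 to 2219 CPM in choroid plexus spots. The 8 microglia markers summed to 342 to 398, 541 to 650, 653 to 945 and 379 to 451 CPM in the same order. Meningeal spots also held more endothelial RNA (554 to 610 CPM over 6 markers, against 166 to 238 CPM in neuron-rich spots) and blood RNA (147 to 314 CPM over 4 globin genes, against 4.11 to 50.7 CPM). All astrocyte, microglia and endothelial markers were detected in each of these classes, while among the globin genes Hba-a2 was at 0 in white matter of section 1 and all 4 were at 0 in choroid plexus spots of section 4. Choroid plexus spots held 243 and 366 CPM of the 6 ependymal markers, against 9.44 to 17.8 CPM in neuron-rich spots. The part of these cells in the results above was not tested.

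Genes that act with the 7 were described from 3 lists. Of the zinc transporters and the metal-sensing factor Mtf1, 20 of 21 were tested, and between white matter and neuron-rich spots 5 rose and 6 fell (list median 0.00), where 22.1% of all genes rose and 20.2% fell. The largest fall was Slc30a3, which loads zinc into synaptic vesicles (-2.32 ± 0.18, edgeR adjusted p = 4.04e-10), and the importer Slc39a10 fell as well (edgeR adjusted p = 6.15e-09). The largest called rise, Slc30a7, was 0.51 ± 0.19 (edgeR adjusted p = 0.0319), so no called rise among the zinc transporters was as large as those of Mt1 and Mt2. In meningeal spots 6 rose, led by the importer Slc39a8 (2.08 ± 0.59) and by Slc30a10 (1.67 ± 0.27), and 3 fell. Over all genes 15.2% rose and 13.6% fell there. In choroid plexus spots 2 rose, led by Slc39a12 (0.91 ± 0.15), and 3 fell, led by Slc30a3 (-2.83 ± 0.36), beside 11.4% and 10.2% of all genes.

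The list for lipoprotein handling held 25 genes, not all of which act on lipoproteins directly. Of these, 23 were tested, and the list median in white matter was 0.62 against 0.03 over all genes. There 13 rose and 4 fell, where 22.1% of all genes rose and 20.2% fell. The leading ones were the small apolipoprotein gene Apoc1 (1.78 ± 0.28) and Npc1, which exports cholesterol from lysosomes (1.49 ± 0.12). The sorting receptor gene Sorl1 fell (-0.62 ± 0.08). In meningeal spots 10 rose and 1 fell, led by Apoc1 (2.65 ± 0.46) and the phospholipid transfer protein gene Pltp (2.32 ± 0.13). Over all genes 15.2% rose and 13.6% fell there. In choroid plexus spots 5 rose and 1 fell, beside 11.4% and 10.2% of all genes. There Pltp (2.29 ± 0.14) was again among the leaders. Pltp was higher in choroid plexus than in white matter (edgeR adjusted p = 1.14e-07) and lower in white matter than in meningeal spots (-1.54 ± 0.14), whereas Apod was lower in choroid plexus than in white matter.

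Of 15 other cystatins and cathepsins, the proteases that cystatin C inhibits among them, 14 were tested. In white matter 9 rose and 2 fell (list median 0.39), led by Ctsk (2.09 ± 0.27) and Ctsh (1.17 ± 0.17). Over all genes 22.1% rose and 20.2% fell there. In meningeal spots 9 rose and 1 fell (median 0.59), led by Ctsh (2.73 ± 0.21) and Ctsc (2.49 ± 0.29). The shares of all genes were 15.2% and 13.6%. In choroid plexus spots 6 rose and 1 fell (median 0.30), led by Ctsc (1.82 ± 0.33) and Ctsh (1.63 ± 0.26). The shares of all genes were 11.4% and 10.2%. The falls in white matter were small, with Cst6 at -0.33 ± 0.12 and Ctsb at -0.23 ± 0.06. Between choroid plexus and meningeal spots 2 were lower and none higher, Ctsh (-1.10 ± 0.27) and Ctss (-0.73 ± 0.17). Between white matter and meningeal spots 4 were lower and none higher. Over all genes 4.61% were lower and 2.78% higher in the first comparison, and 6.91% and 5.93% in the second.

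Co-variation across single spots was measured within each section as Pearson's r of count residuals, observed less expected UMIs scaled by the root of the expectation, where the expectation follows the spot's total. A relation to depth remained in these residuals, from -0.19 for Mt3 to -0.39 for Mt1 with the log2 total of UMIs of the spot, and its part in the positive values below was not tested. Spots of a section share a library and neighboring tissue, so r is a description and has no p. All 21 pairs were positive, with a median r of 0.43 (means of 4 sections). Mt1 and Mt2 gave the highest on this measure, 0.64 ± 0.05 (SD, n = 4, 0.59 to 0.71 over sections), followed by Mt1 with Mt3 (0.59 ± 0.04), Mt1 with Cst3 (0.58 ± 0.03) and Apoe with Clu (0.57 ± 0.02). Mt2 with Mt3 was lower, at 0.44 ± 0.04. Counting error lowers r, and by more for genes whose counts vary little beyond it. The variance relative to counting error was 2.65 for Mt2 and 3.02 for Mt3, against 8.54 for Mt1 and 8.28 for Cst3. Its part in the order of pairs, in the ranking of other genes below and in the values with marker lists below was not tested. Pairs with Apod ran from 0.14 with Mt3 to 0.40 with Apoe, and Apod was the least related gene for each of the others except Apoe. This order depended on the measure and the spots. Mt1 with Cst3 was the highest pair in 4 of 5 alternatives, at 0.60 with choroid plexus and meningeal spots left out (Mt1 with Mt2 also 0.60), 0.54 against 0.48 on log2(CPM + 50), 0.59 against 0.51 as Spearman's rho of CPM, and 0.48 against 0.36 ± 0.12 within neuron-rich spots alone. The median over pairs was 0.41 without choroid plexus and meningeal spots and 0.25 within neuron-rich spots.

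Among 3468 genes with a mean of at least 50 CPM, those most like each gene were mostly members of the same group. Mt1 came closest to Mt2, to Dbi (0.63), which encodes the acyl-CoA binding protein of glia, and to Mt3. The nearest to Mt2 were Mt1, Apoe (0.49) and Dbi (0.47), and to Mt3 they were Mt1, Mt2 and Dbi (0.43). Apoe had Clu, Mt1 (0.55) and Cst3 (0.53) as its nearest genes, and Clu had Apoe, Mt1 (0.53) and Dbi (0.46). Cst3 had Mt1, Apoe and Mt2. Apod alone had none of the other 6 among its nearest 3, which included the prostaglandin D2 synthase gene Ptgds (0.48) and the transferrin gene Trf (0.47).

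**Figure D3:**
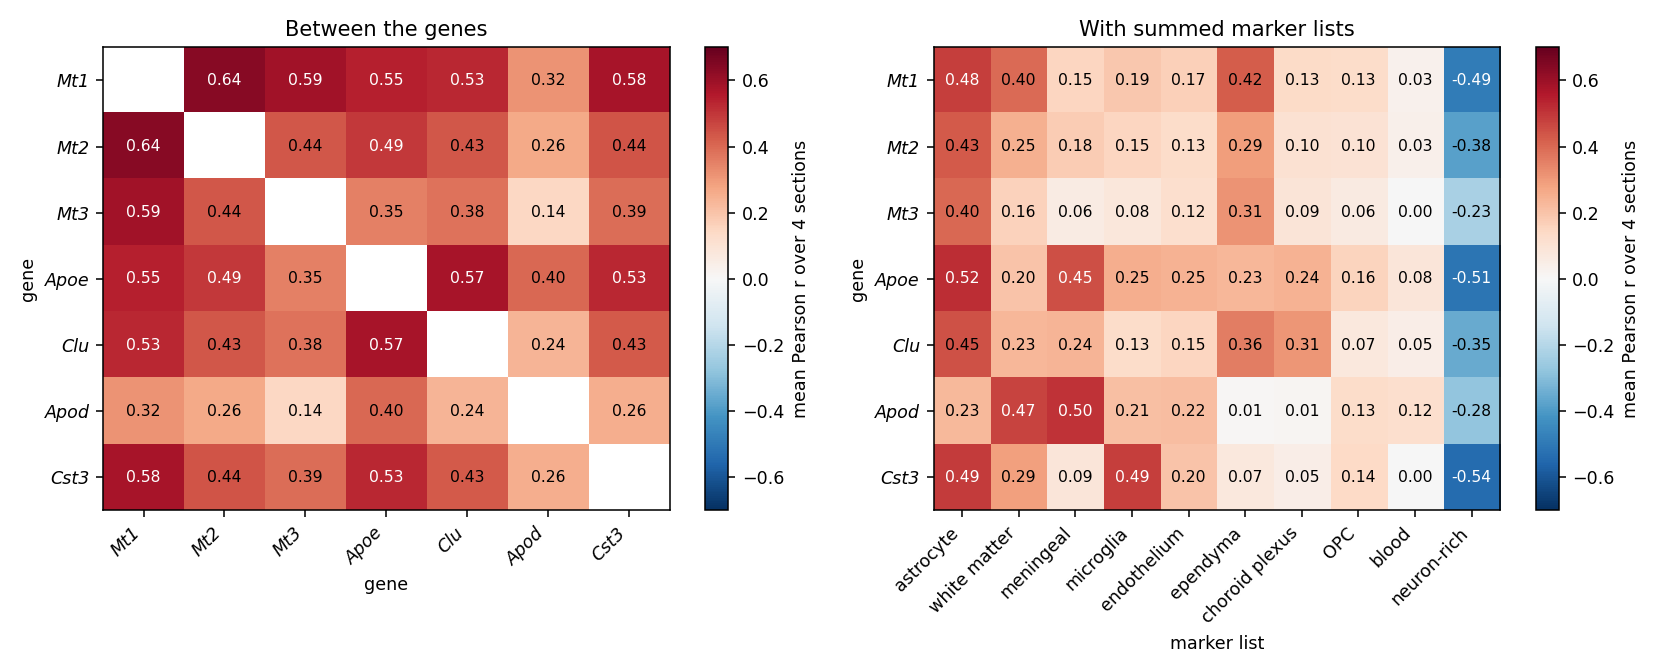
Mean over 4 sections of Pearson's r between count residuals of spots, for each pair of the 7 genes (left) and for each gene with the summed residual of 10 marker lists (right), written in each cell and colored from blue (negative) to red (positive). Apod has the palest row on the left, and on the right Cst3 is the one gene with a high value for microglia (0.49) and Apod the one with high values for both white matter (0.47) and meningeal markers (0.50).

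The 7 genes differed in the marker lists they varied with. All were positive with the 10 astrocyte markers, from 0.23 for Apod to 0.52 ± 0.14 for Apoe, and negative with the neuronal markers, from -0.23 for Mt3 to -0.54 for Cst3. Cst3 had an r of 0.49 ± 0.01 with the 8 microglia markers, in a range of 0.48 to 0.50 over sections, whereas the next highest, Apoe, was at 0.25. Apod had 0.50 ± 0.15 with meningeal and 0.47 ± 0.12 with white matter markers, and Apoe was the other gene above 0.25 for the meningeal list (0.45 ± 0.10). Mt1 had 0.40 ± 0.10 with white matter markers, against 0.25 for Mt2 and 0.16 for Mt3. Clu varied with the choroid plexus list in some sections only, with r from 0.01 to 0.57. Mt1 and Clu had 0.42 ± 0.06 and 0.36 ± 0.17 with the 6 ependymal markers, while Apod had 0.01.

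The study used these sections to ask about OPC clusters and Nf1. Spot positions were not used and Nf1 was not examined here, so its question is not addressed. Instead, the 10% of spots with the largest score over 8 OPC markers, Pdgfra and Cspg4 among them, were set against the other spots of each section. Of 14259 genes tested, 2.79% were called higher and 3.09% lower, and 5 of the 7 genes were higher, all by small amounts. Apod was at 253, 303, 252 and 188 CPM in OPC-marker-high spots against 178, 183, 170 and 143 CPM in other spots of sections 1 to 4. It was higher in 4 of 4 sections, with a log2 fold change of 0.56 ± 0.05 (edgeR adjusted p = 1.49e-08). Apoe was at 2331, 2025, 2020 and 1736 against 1920, 1818, 1653 and 1466 CPM (0.24 ± 0.03, edgeR adjusted p = 6.76e-06). Mt2 (0.21 ± 0.04, edgeR adjusted p = 0.00294), Mt1 (0.16 ± 0.03, edgeR adjusted p = 0.000754) and Cst3 (0.16 ± 0.03, edgeR adjusted p = 0.000372) were also higher in 4 of 4 sections. Clu (0.09 ± 0.04, edgeR adjusted p = 0.210) and Mt3 (0.06 ± 0.03, edgeR adjusted p = 0.314) did not pass.

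**Figure D4:**
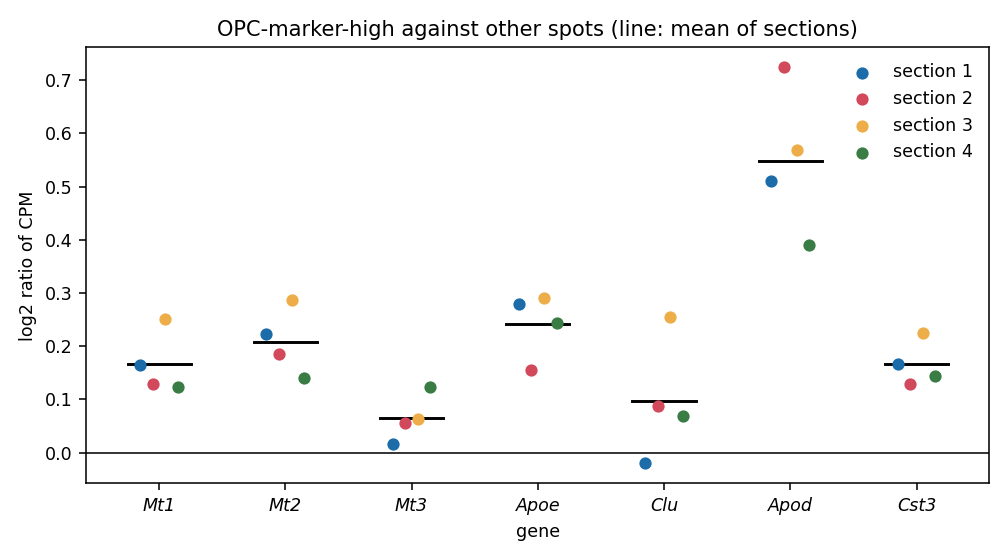
Log2 ratio of CPM in OPC-marker-high spots over other spots for each gene, with 1 point per section and a line at the mean of the sections. All points lie above 0 except Clu in section 1 (-0.02), and the Apod points, from 0.39 to 0.72, lie above those of the other 6 genes.

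Over the classes, the 8 OPC markers summed to 80.4 to 98.7 CPM in neuron-rich spots and 131 to 160 CPM in choroid plexus spots. They summed to 150 to 194 CPM in white matter and 176 to 186 CPM in meningeal spots. OPC-marker-high spots also held more myelin RNA. The 8 white matter markers summed to 3276 to 5800 CPM there against 2554 to 4046 CPM in other spots, and the 10 neuronal markers to 5327 to 7671 CPM against 6627 to 9597 CPM. Microglia markers summed to 456 to 553 against 419 to 479 CPM and astrocyte markers to 2230 to 2852 against 2285 to 2608 CPM. The 10 meningeal markers were higher in sections 2 and 3 (101 against 58.6 and 92.5 against 38.8 CPM). They were lower in sections 1 and 4 (56.7 against 64.6 and 30.3 against 35.3 CPM, with Col3a1 at 0 in section 4). The 4 globin genes summed to 2.34, 30.2, 64.9 and 4.49 CPM in sections 1 to 4 against 10.2, 13.5, 33.8 and 7.78 CPM. The log2 ratios of Apod were 0.51, 0.72, 0.57 and 0.39 in sections 1 to 4. The part of these cells in the rise of Apod was not tested. With white matter spots left out, Apod (0.52 ± 0.07, edgeR adjusted p = 6.01e-05), Apoe (0.22 ± 0.04), Mt2 (0.17 ± 0.05, edgeR adjusted p = 0.0438) and Cst3 (0.15 ± 0.03, edgeR adjusted p = 0.0111) were still called higher, while Mt1 no longer passed (0.12 ± 0.04, edgeR adjusted p = 0.0756). Mt1 also missed the threshold without section 3 (0.14, edgeR adjusted p = 0.0524), and Clu passed it without section 1 (0.14, edgeR adjusted p = 0.00901). Of the 3 lists, zinc handling had 2 of 20 genes lower, Slc30a3 (-0.63 ± 0.09) and Slc39a10 (-0.27 ± 0.06), and none higher. Lipoprotein handling had 3 of 24 higher, led by Apoc1 (0.60 ± 0.16) and Npc1 (0.37 ± 0.09), and Sorl1 lower (-0.21 ± 0.06). Of the cystatins and cathepsins, Ctss was higher (0.23 ± 0.06) and Cst6 lower (-0.36 ± 0.10). Over all genes 2.79% were called higher and 3.09% lower in OPC-marker-high spots.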

How the data were processed

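Fresh frozen brain was embedded in OCT, cut at 10 µm and profiled with the Visium kit. The authors deposited UMI counts of every gene in every spot, made with Space Ranger 1.3.1 per the file headers on mm10 per the submitters' processing notes. Counts were not normalized before deposit, and spot positions were not used here. Spots with at least 500 UMIs were kept. The 4 sections share 418 barcodes, since slides carry a common set of spot barcodes. No pair of sections looked like a library deposited again (chi-square over its degrees of freedom 14.5 to 55.4).

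Counts were summed per section and spot class and fitted together with edgeR 4.0.16 in R 4.3.3 (filterByExpr, TMM, a block for section and the quasi-likelihood test), with Benjamini-Hochberg adjustment across the 13079 genes of the fit of spot classes and the 14267 genes of the fit of OPC-marker-high spots. Genes that define the classes compared were left out of the counts of called genes, and calls need an adjusted p under 0.05. Classes of a section share tissue and library, and their deviations correlated (r = 0.289 to 0.369 between white matter and neuron-rich sums over genes). Standard errors are those implied by the F statistic, and 95% intervals of log2 differences use them with the t quantile of the fit. CPM intervals are exact Poisson 95% intervals and cover counting error only. Fits of the spot classes were also run on simulated counts. These had the same spread for all genes and no differences between sections, unlike these data, so no result rests on them. DESeq2 1.42.0, other scalings, class rules and filters were alternatives.

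The 7 genes, the marker lists and the 3 gene lists were chosen with earlier results of these data known, so nothing in them is independent support. Named from each list were at most the 2 largest called rises and falls of a comparison, and for each of the 7 genes the 3 others with the highest mean r, of which 1 is not reported here. RefSeq gene and promoter records (GRCm38.p6, the mm10 build) were matched by symbol, 7 of 7 for positions and 6 of 7 for promoters.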

Additional observations from a re-analysis of the deposited data

How the results depend on the processing

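Over all alternatives, 764 of 861 log2 fold changes of the 7 genes kept their direction and their side of the threshold, 44 lost a call, 19 gained one and 34 changed sign. The rises over neuron-rich spots in white matter and meningeal spots were called in every alternative except Mt3 in white matter against the remaining spots. Counts of called genes among the 7 below are given without the share of all genes called in each alternative. Stricter choroid plexus spots (at least 5 markers) turned Apod against neuron-rich spots to -0.10, Mt2 and Mt3 against white matter to 0.21 and 0.16, and Mt3 and Clu against meningeal spots to 0.061 and 0.55, with 2 genes then called higher than white matter, and 1 higher and 1 lower than meningeal spots. With the remaining spots as the reference 3 genes were called higher in choroid plexus spots and Apod stood at -0.20. Stricter white matter spots (4 times the median) gave 3 genes lower in choroid plexus than in white matter, with Apoe at -0.085, and 2 lower in white matter than in meningeal spots, with Mt1 at 0.23, Mt3 at 0.011 and Cst3 at 0.15. Keeping spots of several classes gave 1 gene higher in choroid plexus than in white matter, 1 lower than in meningeal spots (Mt1 at 0.033, Clu at 0.36) and 2 lower in white matter than in meningeal spots (Mt1 at 0.12, Cst3 at 0.045). Meningeal spots with at least 5 markers gave 1 gene higher and 2 lower in choroid plexus than in white matter, with Clu at 0.086 against meningeal spots. Neuron-rich spots as the top 15% put Clu at 0.093 in choroid plexus against meningeal spots and Mt1 and Cst3 at 0.11 and 0.048 in white matter against meningeal spots, with 2 genes lower there. As the top 50% they gave 2 genes lower in choroid plexus than in white matter and Cst3 at 0.0027 in white matter against meningeal spots. Totals without Ttr and spots with at least 5000 UMIs each gave 1 gene higher in choroid plexus than in white matter, with Mt3 at 0.0085 and Clu at 0.057 against meningeal spots in the first and Mt2 at 0.0046 in the second. Without a filter on low counts 3 genes were lower in choroid plexus than in white matter and Cst3 was at 0.019 in white matter against meningeal spots. Admitting classes with 5 spots, chosen after seeing the data, gave 2 genes lower in white matter than in meningeal spots (Mt1 at 0.11, Cst3 at 0.035) and put Mt3 at 0.0014 against white matter and Mt1 and Clu at 0.00079 and 0.0043 against meningeal spots in the choroid plexus.

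Leaving out 1 section gave 2 to 4 genes lower in white matter than in meningeal spots, the fewest without section 2, with Mt1 from -0.069 to 0.0056 and Cst3 from -0.085 to 0.059. It put Apoe at -0.047 to 0.30 in choroid plexus against white matter and Clu at -0.14 to 0.027 against meningeal spots. Without the replicate block 0 of the 7 genes were called in OPC-marker-high spots, although the log2 fold changes stayed at 0.56 for Apod, 0.24 for Apoe, 0.21 for Mt2 and 0.16 for Mt1 and Cst3, and 2 were lower in white matter than in meningeal spots. All genes called in the OPC comparison fell from 838 to 8 without that block, to 341 with DESeq2, to 379 with the top 5% of spots, to 499 without white matter spots, and to 508 and 529 without section 2 or 3. Without section 2, genes called fell from 3771 to 2047 in meningeal against neuron-rich spots, from 1676 to 728 in white matter against meningeal spots (1091 without section 3) and from 965 to 368 in choroid plexus against meningeal spots (522 and 621 without sections 1 and 3). Without section 1 they fell from 1162 to 657 in choroid plexus against white matter, and from 2829 to 1851 against neuron-rich spots (1830 without section 4, 1215 with only those classes fitted). Stricter meningeal spots gave 2457 and 946 calls against neuron-rich and white matter spots and stricter choroid plexus spots 500 against meningeal spots, and with the remaining spots as the reference the counts were 697, 2655 (from 5515) and 2467 for choroid plexus, white matter and meningeal spots. The cause of these changes was not tested. Choroid plexus and meningeal spots occur together only in section 1, so their comparison draws on differences between sections and could not be fitted with these classes alone. The median r of the pairs was 0.25 in neuron-rich spots, 0.34 on log2(CPM + 50) and 0.36 as Spearman's rho.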
